A study of Mus musculus with 7 samples.

Results

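A group of 1631 CTCF sites on the mouse autosomes carried the class name lone CTCF, the class of CTCF sites without cohesin, and nevertheless shared at least 1 bp with a peak of the cohesin subunit Rad21. They were selected on measured values, namely the class and the presence of a Rad21 peak, so these properties describe the group and are not results about it. They made up 15.9% of the 10246 lone-class sites on chromosomes 1 to 19 and 3.19% of all 51203 classified sites there. The data were ChIP-seq profiles of liver from male Crl:CD1(ICR) mice of 8 weeks of age, with 4 libraries for CTCF (Millipore antibody) and 3 libraries for Rad21 (Abcam antibody). All animals were of this 1 outbred stock, with no treatment or genetic change named in the labels. The libraries of each factor were pooled before peaks were called, so no value below has a spread between mice, and every interval covers counting error over sites only.

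CTCF is a zinc-finger protein that binds a long, directional DNA motif. Cohesin is a ring-shaped complex that extrudes chromatin loops and is halted at CTCF sites, where Rad21 (the subunit that closes the ring), 1 of the alternative subunits Stag1 or Stag2, and often the type II topoisomerase Top2b are found together. Cohesin also occurs at active enhancers and promoters without CTCF, sites called cohesin-non-CTCF (CNC) sites. In liver such enhancers are typically bound by hepatocyte factors such as HNF4A, FOXA and C/EBP proteins. Cohesin-and-CTCF sites are called CAC sites.

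Sequences of 8 members show what the group contains, in build mm9. The 5 members with the highest CTCF motif score are shown first because they carry the best CTCF motifs of the group. The capitals mark the best match to a 19-base CTCF matrix within the peak, written 5′ to 3′ along the motif:
Usp46 (chr5:74485460-74485478, minus strand): AGGCCAGAAGAGGGCACCA
Dgcr6 (chr16:18032020-18032058, plus strand): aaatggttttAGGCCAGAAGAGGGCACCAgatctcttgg
Gfm1 (chr3:67252062-67252100, plus strand): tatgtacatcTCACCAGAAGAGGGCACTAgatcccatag
Dock10 (chr1:80719406-80719444, minus strand): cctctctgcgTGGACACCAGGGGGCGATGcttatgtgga
Gm628 (chr15:73669471-73669509, minus strand): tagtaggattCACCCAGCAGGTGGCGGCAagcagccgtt

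The matches at Usp46 and Dgcr6 were identical at all 19 bases, while those at Gfm1, Dock10 and Gm628 shared 15, 10 and 11 bases with them by position. The match lay 136 bp from the CTCF summit at Usp46 and within 17 bp of it at the other 4. At most members no such motif was found, and these are shown by the distal members (over 1 kb from a protein-coding gene start) without a deposited motif that had the highest Rad21 scores among those outside untranslated exons and with no second CTCF peak on the Rad21 peak. In these windows of 150 bp around the CTCF summit, plus strand, capitals mark matches to any of 14 short motifs listed further on:
Wwc1 (chr11:35777331-35777480): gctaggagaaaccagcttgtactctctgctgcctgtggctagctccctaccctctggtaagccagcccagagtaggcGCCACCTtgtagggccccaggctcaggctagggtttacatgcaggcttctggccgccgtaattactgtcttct
Atl2 (chr17:80318016-80318165): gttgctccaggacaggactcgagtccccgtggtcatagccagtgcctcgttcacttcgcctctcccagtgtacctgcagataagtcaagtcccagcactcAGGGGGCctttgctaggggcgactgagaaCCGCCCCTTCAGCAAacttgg

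The capitals at Wwc1 are a CTCF core on the minus strand. At Atl2 they are a CTCF core followed by a GC box and a C/EBP match on the minus strand, which adjoin each other. The third kind of member lay at a promoter, and the strongest by Rad21 with its window outside untranslated exons and no second CTCF peak lay in an intron 626 bp into Arfip1. It is shown with CpG dinucleotides in capitals:
Arfip1 (chr3:85690737-85690886): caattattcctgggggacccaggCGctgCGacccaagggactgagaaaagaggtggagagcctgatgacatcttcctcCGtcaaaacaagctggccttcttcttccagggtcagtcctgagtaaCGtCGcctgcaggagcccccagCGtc

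Both signals of the group were weak beside those of other classified sites. The peak score is 10 times the −log10 of the q-value of the peak. CTCF scores ran from 28 to 129 with a median of 101, and Rad21 scores from 20 to 5720 with a median of 125 (quartiles 75 and 207). Over all classified sites the medians were 830 for CTCF and, where a Rad21 peak was present, 332 for Rad21, and over all other CAC sites 700 and 233. The deposited fold over local background had a median of 3.89 for CTCF and 4.24 for Rad21. The number of fragments at the summit, recovered from the fold and the p-value, had a median of 34 for CTCF (range 20 to 103) and of 42 for Rad21 at the 1628 members where it could be recovered. At 1018 of these 1628 members (62.5%) the Rad21 summit held at least as many fragments as the CTCF summit, against 33.0% of weak other CAC sites, which are defined further on, and 12.8% of the 31330 classified sites where both counts could be recovered. The pools were of 4 and 3 libraries whose depths are not in the files, so this share compares these pools and not occupancies. The lower share of the weak other CAC sites follows from how they were drawn, by higher CTCF scores (median of 48 CTCF fragments) with Rad21 fragments (median 40) close to those of the members.

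The upper limit of the CTCF score met the other CAC class without a gap. At the highest score of the members, 129, there were 25 members and 14 other CAC sites, with −log10 q from 12.91 to 12.999 and from 12.90 to 12.98. At 130 there were 22 other CAC sites. The members of highest score in genome order were at Nr1i3 (129), Ncoa6 (129) and Srsf6 (129), and those of lowest score at B4galnt3 (28), Cdh2 (33) and Ergic2 (36). Each of the 1574 members with a single Rad21 peak and the 57 with 2 Rad21 peaks was kept, and for the latter the stronger was used.

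**Figure D1:**
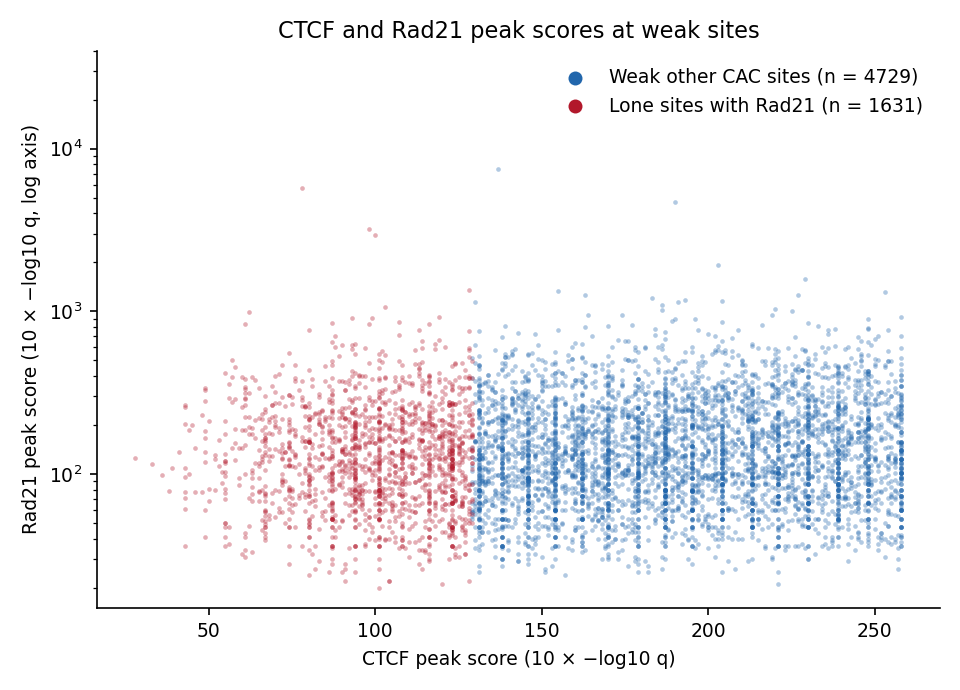
CTCF peak score (linear x axis) against Rad21 peak score (log y axis), both 10 × −log10 q, with 1 point per site for the 1631 lone sites with Rad21 (red) and 4729 weak other CAC sites (blue). The red points end at a CTCF score of 129 where the blue begin, and both cover the same range of Rad21 scores apart from a few sites at the top.

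Members were compared with 2 groups of sites of like strength. Weak other CAC sites were the 4729 other CAC sites with a CTCF score of at most 258, which is 2 times the highest score of the members, and weak lone sites without Rad21 were the 1053 lone sites with no Rad21 overlap and a score of at most 129. The first group differed from the members in CTCF score by the way it was drawn (median 192 against 101), while its Rad21 scores were close (median 130 against 125). The second was of similar CTCF score (median 103). Sites are not replicates, so intervals and tests describe these lists. Class and CTCF score thus cannot be told apart in the comparison with other CAC sites. Of the 19 autosomes, the number in which members had the higher share is given as a count.

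Peaks of the other cohesin subunits and of Top2b, taken by the authors from public liver data, were found at most members. Stag2 peaks lay at 1488 members (91.2%, 95% Wilson interval 89.8 to 92.5%), against 88.3% of all classified sites. Top2b peaks lay at 1126 members (69.0%, 66.8 to 71.2%), against 55.1% of all sites, and Stag1 peaks at 874 (53.6%, 51.2 to 56.0%), against 70.8% of all sites. The names of these 3 columns rest on their order in the description of the list, since the file has no header. In all, 712 members (43.7%) had all 3, 383 (23.5%) had Stag2 with Top2b and no Stag1, 242 (14.8%) had Stag2 alone, and 104 (6.38%) had none. Stag1 without Stag2 was rare, at 8 members without and 3 with Top2b.

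Weak lone sites without Rad21 carried these peaks less often. The groups were split by Rad21 overlap, and Stag1 and Stag2 are subunits of the same complex, with which Top2b is often found, so these differences largely restate the selection and are a description. The shares were 44.1% for Stag2, 14.6% for Stag1 and 11.9% for Top2b, lower than the members by 47.2 points (Newcombe 95% interval 43.8 to 50.4), 39.0 points (35.6 to 42.1) and 57.2 points (54.1 to 60.0). Members had the higher share on 19 of 19 autosomes for each. Of these lone sites, 52.1% had no such peak.

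Against weak other CAC sites the differences were smaller and did not go one way. Top2b was more frequent at members by 12.8 points (10.1 to 15.4, higher on 19 of 19 autosomes), from 56.2% at weak other CAC sites. Stag1 was less frequent, with a difference of -4.80 points (-7.60 to -2.01, members higher on 3 of 19) from 58.4% at weak other CAC sites. By range of the Rad21 score from the lowest to the highest, the Stag1 difference was -2.64 points (-8.03 to 2.90), -8.22 points (-13.8 to -2.56), -3.66 points (-9.24 to 1.84) and -1.28 points (-6.34 to 3.46), with ranges given further on. It was -9.48 points (-14.7 to -4.37) at distal sites with a motif and -2.55 points (-7.18 to 2.02) at those without. The interval of the whole Stag1 difference held 0 when other CAC sites were limited to a CTCF score of at most 193 (-2.09 points, -5.22 to 1.03). Stag2 was at 92.4% and its difference, -1.13 points, had an interval from -2.77 to 0.369. At promoters Stag2 was less frequent at members, both with a CTCF motif (90.0% against 94.5%, -4.46 points, -9.59 to -0.602) and without (88.7% against 93.75%, -5.09 points, -9.11 to -1.68), while the intervals of the distal differences held 0 (-1.30 points, -4.94 to 1.78, with a motif and 0.497 points, -1.82 to 2.61, without). The share with all 3 peaks was 6.37 points higher at members (3.61 to 9.15).

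**Figure D2:**
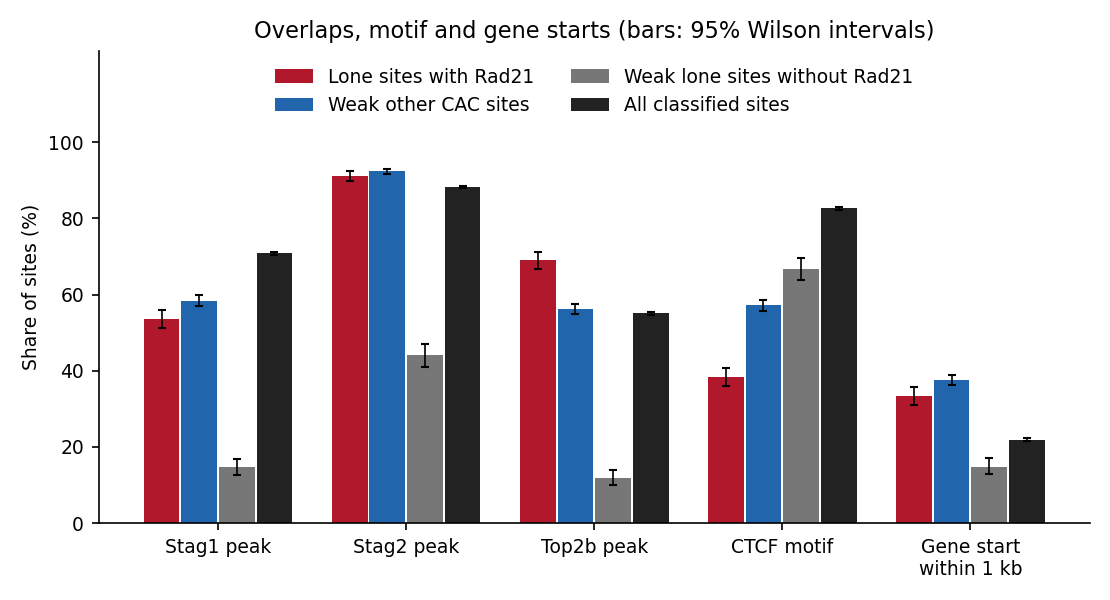
Share of sites (y axis, %) that overlap a Stag1, Stag2 or Top2b peak, have a deposited CTCF motif, or lie within 1 kb of a protein-coding gene start, for members (red), weak other CAC sites (blue), weak lone sites without Rad21 (grey) and all classified autosomal sites (black), with 95% Wilson intervals. Members are close to weak other CAC sites in Stag1 and Stag2, above them in Top2b (69.0% against 56.2%) and below them in motif (38.4% against 57.2%).

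The Top2b difference between members and weak other CAC sites was found at distal sites. There 71.7% of 1087 members and 50.3% of 2954 weak other CAC sites had a Top2b peak, a difference of 21.4 points (18.1 to 24.5, higher on 19 of 19 autosomes). Within 1 kb of a gene start the shares were 63.8% of 544 members and 66.1% of 1775 other sites, a difference of -2.30 points (-6.95 to 2.22, members higher on 7 of 19). The distal difference exceeded the promoter difference by 23.7 points (18.1 to 29.3). Splitting by the deposited motif, the difference was largest at distal sites with a motif, with Top2b at 55.5% of 427 members against 35.5% of 1874 other sites (19.96 points, 14.7 to 25.1). A motif was deposited for 39.3% of the distal members and 63.4% of the distal other sites. Weighted, in an analysis added after seeing the data, to the motif share of the members, the distal difference was 11.6 points (8.44 to 14.7) and exceeded the promoter difference by 14.5 points (9.03 to 20.1). Weighted to that of the other CAC sites it was 14.9 points (11.3 to 18.5), and the excess 17.7 points (11.8 to 23.6). The Rad21 scores of the distal sites with a motif had medians of 98 at members and 101 at other sites. At distal sites without a motif Top2b lay at 82.1% of 660 members and 75.9% of 1080 other sites (6.195 points, 2.24 to 9.996). Among weak lone sites without Rad21 it lay at 5.24% of 630 distal sites with a motif and 23.6% of 267 without.

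Top2b was more frequent at higher Rad21 score in both groups, and members had the higher share in each of 4 ranges of the Rad21 score, set at the quartiles of the members. At scores up to 75 the shares were 49.2% of 417 members and 33.1% of 1097 other sites, a difference of 16.1 points (10.5 to 21.6). From 76 to 125 they were 71.8% and 48.1% (23.6 points, 18.2 to 28.7), from 126 to 207 72.9% and 64.0% (8.92 points, 3.63 to 13.9), and above that 82.9% and 76.1% (6.79 points, 2.25 to 10.9). Stag1 also went up with the Rad21 score among members, from 37.6% in the lowest to 73.3% in the highest range. The deposited motif went the other way, from 46.8% to 33.4%. Weak other CAC sites had the same directions, from 40.3% to 74.5% for Stag1 and from 66.5% to 45.9% for the motif.

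**Figure D3:**
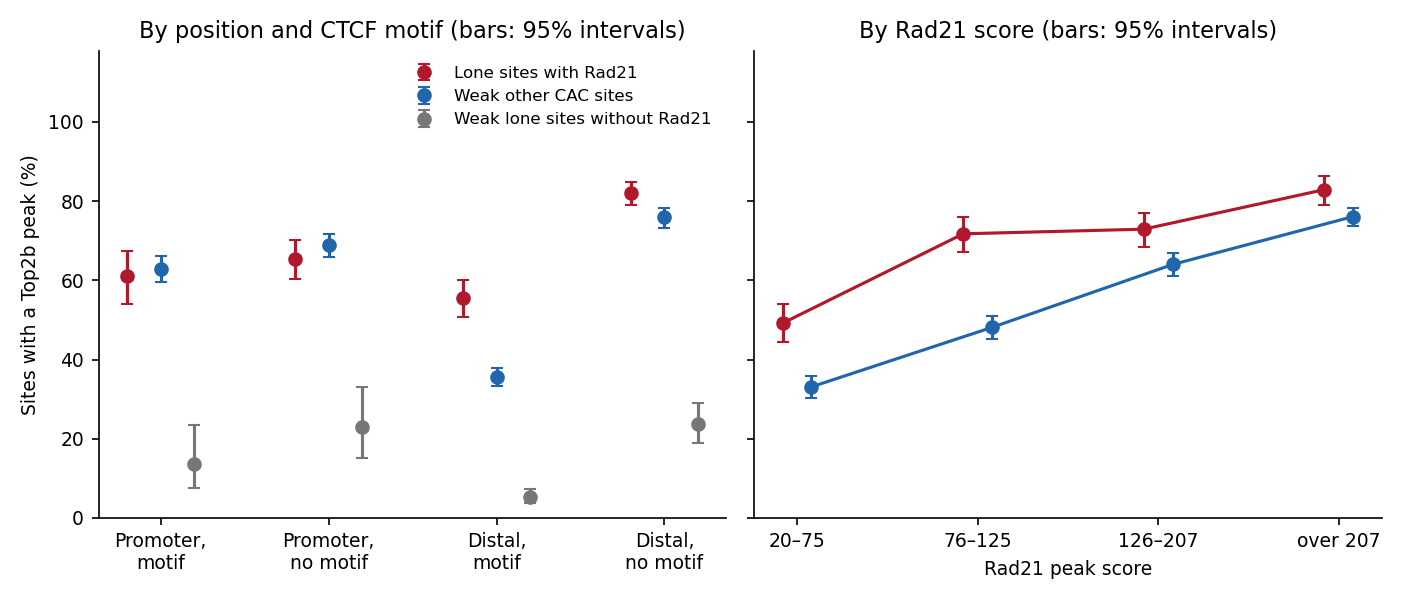
Share of sites with a Top2b peak (y axis, %), left by position (promoter: within 1 kb of a gene start) and deposited CTCF motif, right by Rad21 peak score, for members (red), weak other CAC sites (blue) and weak lone sites without Rad21 (grey, left only), with 95% Wilson intervals. Red lies above blue at distal sites and in every Rad21 score range, and the intervals of both overlap at promoters.

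The CTCF motif was scarce and poor at members. A deposited motif lay in 627 members (38.4%, 36.1 to 40.8%), against 82.6% of all classified sites. The share was 57.2% at weak other CAC sites and 66.8% at weak lone sites without Rad21, with differences of -18.8 points (-21.5 to -16.0) and -28.3 points (-31.9 to -24.6). Members had the higher share on 0 of 19 autosomes in both comparisons. Where a motif was present its log-odds score was also lower, with a median of 10.46 against 11.95 at weak other CAC sites (two-sided Kolmogorov-Smirnov D = 0.193, adjusted p = 6.23e-17, n = 627 and 2705) and 13.82 at weak lone sites without Rad21 (D = 0.393, adjusted p = 2.74e-46, n = 703). The motif score of members ran from 7.77 to 20.36.

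Where a CTCF matrix matched at members with a motif, the match also sat farther from the CTCF summit. A matrix learnt from strong domain anchors matched within the peak at 296 of the 627 members with a deposited motif, on the deposited strand at 292 of them, and 49.7% of these matches had their centre within 50 bp of the summit. The same share was 69.6% of 1716 at weak other CAC sites and 68.4% of 566 at weak lone sites without Rad21. The differences were -19.98 points (-26.0 to -13.9) and -18.7 points (-25.5 to -11.8). The median CTCF peak width was 401 bp at all members, 410 bp at weak other CAC sites and 314 bp at weak lone sites without Rad21. The part of width in these differences was not tested. Members without a deposited motif had the higher Top2b share (76.4% of 1004 against 57.3%, motif minus no motif -19.1 points, -23.8 to -14.4) and all 3 peaks more often (49.7% against 34.0%, -15.7 points, -20.5 to -10.8).

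CTCF and Rad21 summits lay farther apart at members than at other CAC sites. The distance had a median of 84 bp (quartiles 37 and 180.5; 95% interval of the median 78 to 91), against 58 bp (56 to 60) at weak other CAC sites and 35 bp at all 26257 other CAC sites. Summits lay within 100 bp of each other at 919 members (56.3%) and 69.3% of weak other CAC sites, a difference of -12.9 points (-15.7 to -10.2). Along the deposited motif, the Rad21 summit lay a median of 7 bp 3′ of the CTCF summit at the 627 members with a motif (-4 to 15), and 15 bp (11 to 18) at weak other CAC sites. At 187 members (11.5%) the Rad21 peak also overlapped a second CTCF peak, which had the higher CTCF score at 102 of them. That share was 5.86% at weak other CAC sites. Without such sites in either group the Top2b difference was 13.1 points (10.3 to 15.9) and the motif difference -18.3 points (-21.2 to -15.4), while the median Rad21 score of members was 116.

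Promoters were common among the members. The CTCF summit was within 1 kb of a protein-coding gene start at 544 members (33.4%, 31.1 to 35.7%), against 21.9% of all classified sites. These 544 members had 535 different nearest genes, with 177 summits upstream of the start and 367 at or downstream of it. The difference from weak other CAC sites (37.5%) was -4.18 points (-6.82 to -1.48), and the share was 18.5 points higher than at weak lone sites without Rad21 (14.8%, 15.3 to 21.6). With summits within 100 bp of each other in both groups the difference from other CAC sites was -3.05 points (-6.37 to 0.386). By range of the Rad21 score from the lowest to the highest, it was 2.33 points (-2.53 to 7.45), 3.51 points (-1.70 to 8.92), -7.99 points (-13.3 to -2.49) and -12.1 points (-17.5 to -6.58). By gene part, 754 member summits (46.2%) were in introns, 586 (35.9%) between genes, 164 (10.1%) in untranslated exons and 127 (7.79%) in coding exons.

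Promoter and distal members differed in base composition and in their cohesin subunits. In 300 bp at the CTCF summit the median G+C was 63.3% at promoter members and 51.3% at distal members, and the median number of CpG dinucleotides 22 and 4. Stag1 was found at 38.4% of promoter and 61.2% of distal members (-22.8 points, -27.7 to -17.7). Stag2 was found at 89.2% and 92.3% (-3.12 points, -6.35 to -0.199), and all 3 peaks at 30.3% and 50.3%. The Stag1 gap was not particular to members, since weak other CAC sites had 45.5% at promoters and 66.1% at distal sites. The distal Stag1 difference between members and these sites exceeded the promoter difference by 2.08 points, with an interval that held 0 (-3.76 to 7.77). The deposited motif was as frequent within the error, 36.8% and 39.3% (-2.52 points, -7.44 to 2.51).

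Over all members G+C had a median of 53.7% (quartiles 49.0 and 60.8), against 48.0% at weak lone sites without Rad21 (D = 0.316, Kolmogorov-Smirnov adjusted p = 9.35e-57, n = 1631 and 1053). Against weak other CAC sites the distribution was narrower around a similar median (54.0%, quartiles 47.7 and 63.7; D = 0.0718, adjusted p = 8.01e-06, n = 4729). The distance to the nearest gene start had a median of 10064 bp, against 13645 bp at weak lone sites without Rad21 (D = 0.188, adjusted p = 4.63e-20, n = 1631 and 1053) and 7780 bp at weak other CAC sites (D = 0.0522, adjusted p = 0.00259, n = 4729). The latter test did not pass with summits within 100 bp in both groups (D = 0.0494, adjusted p = 0.0585, n = 919 and 3276).

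**Figure D4:**
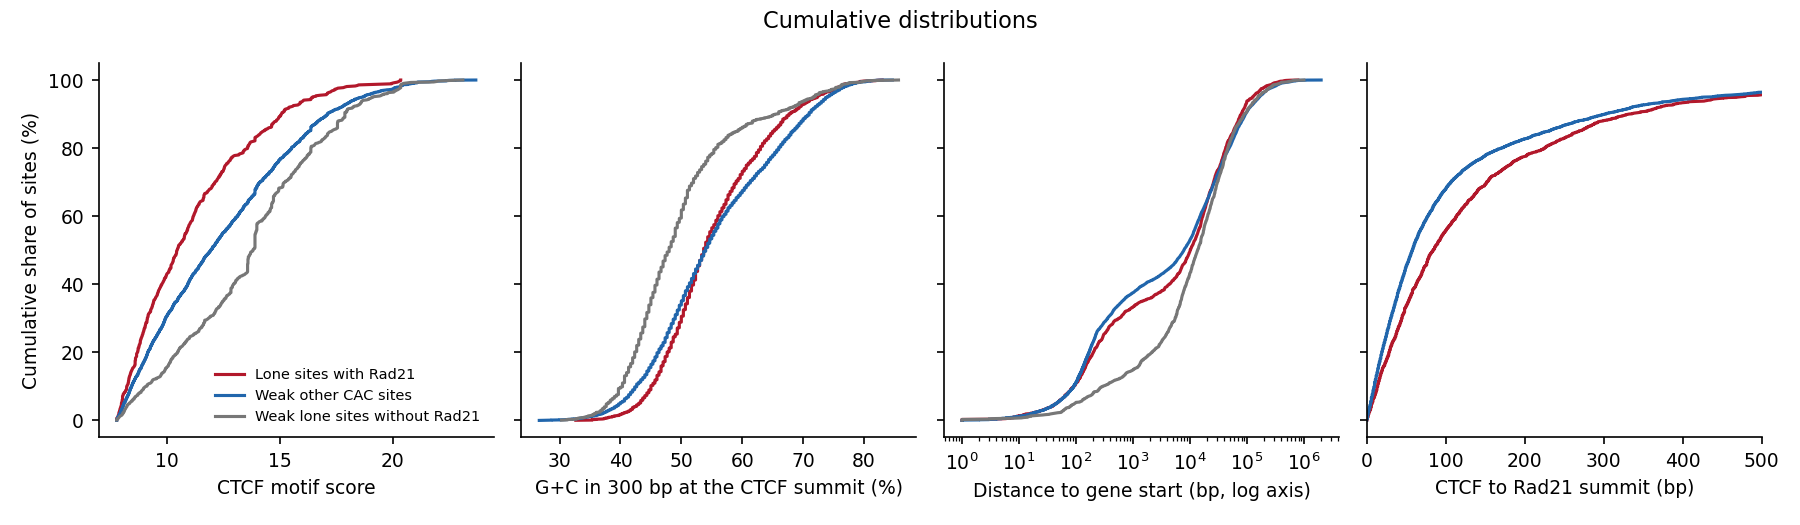
Cumulative share of sites (y axis, %) by CTCF motif score, by G+C in 300 bp at the CTCF summit, by distance to the nearest protein-coding gene start (log axis) and by distance between the CTCF and Rad21 summits (cut at 500 bp), for members (red), weak other CAC sites (blue) and weak lone sites without Rad21 (grey). The red curve of motif scores lies to the left of both others (median 10.46), and that of summit distances to the right of the blue (median 84 bp against 58 bp).

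Members were also set beside the 15118 autosomal CNC peaks, which are Rad21 peaks that overlap no CTCF peak, both measured at the Rad21 summit. Members were closer to genes and richer in G+C. A gene start lay within 1 kb of 33.4% of members and 12.4% of CNC peaks (21.0 points, 18.7 to 23.4), the median distance was 10093 bp against 20361 bp (Kolmogorov-Smirnov D = 0.215, adjusted p = 1.29e-59, n = 1631 and 15118), and the median G+C 54.3% against 50.3% (D = 0.270, adjusted p = 4.25e-94). The Rad21 score had a median of 65 at CNC peaks, with quartiles of 47 and 95, and is given with no test because overlap with a CTCF peak entered the choice of both.

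Short matches to motifs of liver and promoter factors were counted in distal and promoter members. A window, at the CTCF summit or for CNC peaks the Rad21 summit, was counted when its 300 bp held at least 1 match on either strand. Such counts depend on base composition and are a description with no test. The half-site AGGTCA of nuclear receptors was in 28.8% of the 660 distal members without a motif, 13.4% of promoter members, 16.8% of all classified CTCF sites and 27.8% of CNC peaks. The C/EBP motif TTGCNNAA was in 18.3%, 7.54%, 10.8% and 17.3% of these, in the same order. The FOXA motif TGTTTAC was in 8.03%, 4.04%, 3.67% and 6.59%, and HNF4A, CAAAGTCC, in 4.24%, 2.39%, 1.41% and 3.71%. HNF1, GTTAATNAT, was in 2.58%, 0.368%, 0.748% and 1.60%. For these 5 motifs, distal members without a CTCF motif lay nearer to CNC peaks than to all CTCF sites. The subset was picked as distal and without a motif. Of all classified sites 82.6% had a motif and 21.9% lay at promoters. Weak other CAC sites, at any position, had shares of 18.7% for the half-site and 11.2% for C/EBP. Those of weak lone sites without Rad21 were 19.2% and 12.1%. Distal sites without a motif were not counted apart in these groups, so a like comparison was not made. Distal members with a CTCF motif had shares of 26.7% for the half-site, 15.7% for C/EBP, 6.09% for FOXA, 2.11% for HNF4A and 1.17% for HNF1, of which the first 3 also lay nearer to CNC peaks.

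The GC box and the ETS motif, which are common in CpG-rich promoters, were more frequent at promoter members than at distal ones. The GC box GGGGCGG was in 32.5% of promoter members and 3.03% of distal members without a motif, against 10.1% of all classified sites. ETS, CCGGAAG, was in 10.8%, 2.73% and 3.97% of the same groups, and NRF1, GCATGCGC, in 2.39%, 1.06% and 1.14%. YY1, AAGATGGCG, was in 18 members (3.31% of those at promoters), all of them at promoters. The CRE, TGACGTCA, was in 1.10%, 0.455% and 0.477%, and NF-Y, AGCCAAT, in 4.23%, 4.24% and 3.54%. STAT, TTCNNNGAA, was in 4.04%, 10.5% and 7.93%, and AP-1, TGANTCA, in 3.49%, 8.18% and 7.44%. At CNC peaks the shares were 4.86% for the GC box, 2.42% for ETS, 0.595% for NRF1, 0.251% for YY1, 0.403% for the CRE, 4.38% for NF-Y, 9.31% for STAT and 10.05% for AP-1. Distal members without a motif lay nearer to all classified sites than to CNC peaks for AP-1, NRF1 and the CRE. The CTCF core AGGNGGC, which overlaps the matrix match, was in 41.0% of promoter members, 32.3% of distal members with a motif, 21.8% of those without, 40.7% of all classified sites and 20.1% of CNC peaks.

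**Figure D5:**
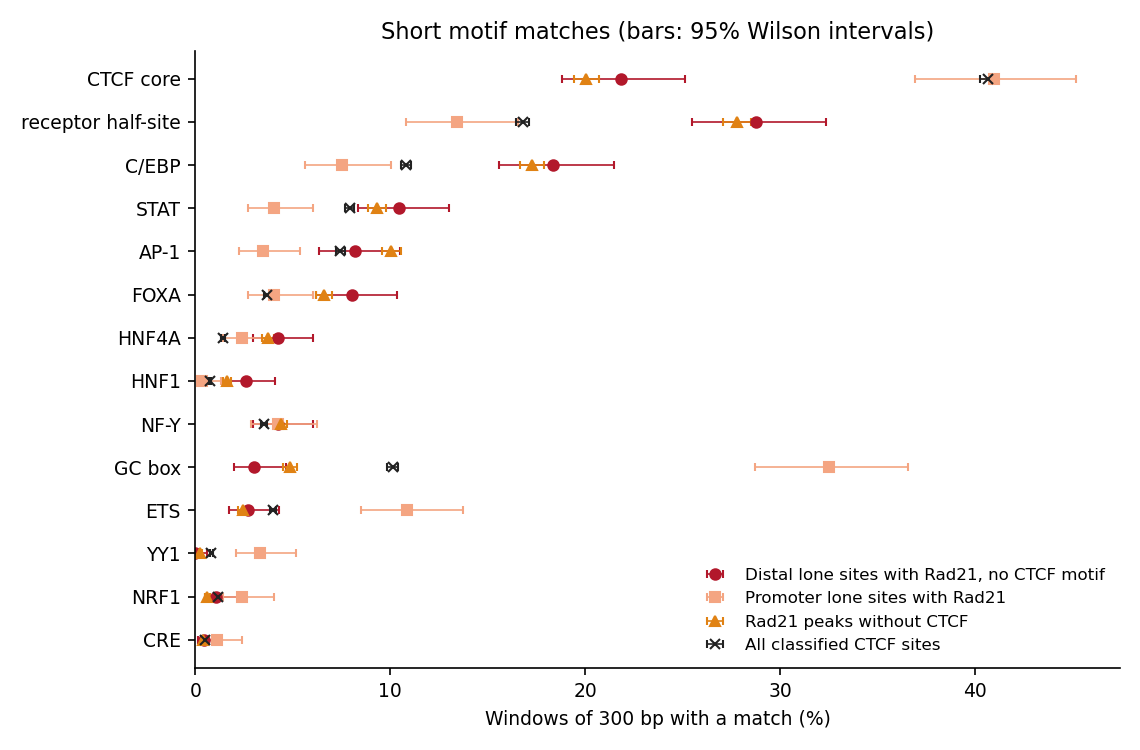
Share of 300 bp windows with at least 1 match (x axis, %) for 14 short motifs (y axis), at distal members without a CTCF motif (red circles), promoter members (pale squares), CNC peaks (orange triangles, at the Rad21 summit) and all classified CTCF sites (black crosses), with 95% Wilson intervals. Red and orange lie close together for the receptor half-site and C/EBP, above the black crosses, while the GC box and ETS are highest at promoter members (32.5% and 10.8%).

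The 5 members with the highest Rad21 score were all at promoters, and so were also the 5 strongest promoter members. At 4 of them the Rad21 peak was shared with a much stronger CTCF peak beside the member. Tcf7l1, a transcriptional repressor of the Wnt pathway, had a member at chr6:72738836-72739050 in an untranslated exon, 43 bp upstream of the nearest start, with a CTCF score of 78 and a Rad21 score of 5720. The Rad21 summit lay 597 bp away from the CTCF summit, and the strongest CTCF peak on that Rad21 peak had a score of 7884. At Tns1, which encodes the focal adhesion protein tensin (chr1:74170869-74171364, CTCF score 98, Rad21 score 3188), that distance was 751 bp and the stronger CTCF peak had a score of 4726. At 1700041G16Rik (chr8:23918924-23919225, 100 and 2932) the stronger CTCF peak had a score of 14834, and at Pde4dip, a scaffold protein of centrosome and Golgi (chr3:97571630-97571913, 103 and 1068), of 3901.

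Sdc1 was the exception among these 5. It encodes syndecan-1, a heparan sulphate proteoglycan that takes up lipoproteins in liver. Its member at chr12:8778297-8778606, 112 bp upstream of a start and in an untranslated exon, had a CTCF score of 128 with 77 fragments and a Rad21 score of 1351 with 289 fragments. The summits were 49 bp apart, no other CTCF peak lay on the Rad21 peak, and Stag1 and Stag2 peaks but no Top2b peak were present. This member had no CTCF motif, and its window had a G+C of 72.0%.

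The members whose sequences are printed above ranged from weak to strong in Rad21. Those with the best motifs had low Rad21 scores of 60 at Usp46 (a deubiquitinase gene, CTCF score 103), 77 at Dgcr6 (120), 54 at Gfm1 (a mitochondrial elongation factor, 98), 20 at Dock10 (a guanine nucleotide exchange factor, 101) and 73 at Gm628 (94). None of these 5 had a Top2b peak, while Stag2 peaks lay at all but Gfm1 and Stag1 peaks at Dgcr6, Dock10 and Gm628. They lay in introns at Gfm1, Dock10 and Gm628, the last within 1 kb of a start, and between genes, 21150 and 20904 bp upstream of the nearest start, at Usp46 and Dgcr6. The members without a motif had Rad21 scores of 661 in an intron of Wwc1 (Kibra, of the Hippo pathway), 651 at 22628 bp upstream of Atl2 (atlastin, which shapes the endoplasmic reticulum) and 831 at Arfip1 (arfaptin), with CTCF scores of 119, 87 and 116. All 3 had Stag1, Stag2 and Top2b peaks. These 3 were picked by Rad21 score and the 5 above by motif score, so the contrast between them is no result. Over all members the median Rad21 score was 106 with a deposited motif and 136 without.

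Genes of liver functions, of the clock, of the cohesin and CTCF machinery and of the ribosome were followed in 10 lists of 180 genes. The lists were chosen with earlier results of these data known. Of the 175 that were annotated on the autosomes, 32 (18.3%, 13.3 to 24.7%) had a member within the gene or 10 kb of it, beside 7.52% of all 21418 protein-coding genes. List genes were longer (median 22.0 kb against 15.5 kb), which gives more room for sites, and the part of length in this difference was not tested. With only the gene start counted, 15 list genes (8.57%) and 4.30% of all genes had a member within 10 kb. No test was made.

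Nuclear receptors of metabolism, the ligand-activated regulators of bile acid, lipid and drug handling, had members at 7 of 17 genes (41.2%, 21.6 to 64.0%, median length 47.1 kb). Rora, an orphan receptor that also drives the clock, had 2 members, the stronger in an intron with a Rad21 score of 374 (CTCF score 78). Nr1h3, the oxysterol receptor LXR alpha, had one 157 bp into the gene (Rad21 341, CTCF 125). Those of Rara, a retinoic acid receptor, and Nr3c1, the glucocorticoid receptor, were intronic, with Rad21 scores of 176 and 148. The others were Thrb, Nr1i3 and Nr1h4. Top2b peaks lay at the strongest member of 6 of these 7 genes, beside 69.0% of all members. The member of Thrb was the one without, and it had the highest motif score of them, 16.46.

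Clock genes had members at 5 of 16 genes (31.2%, 14.2 to 55.6%, median length 32.7 kb). Hlf and Tef encode output regulators of the clock. The member in an intron of Hlf had a Rad21 score of 494 with 114 fragments, against 42 fragments for CTCF, and all 3 other peaks, while that of Tef had a Rad21 score of 223 with a Stag2 peak only. Arntl, which encodes the activator BMAL1, had a member 398 bp upstream of its start (Rad21 223). Per2, a repressor of the clock, had one in an intron (136). None of these 4 members had a CTCF motif, and Cry2 (74) was the fifth gene.

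Lipid genes had members at 5 of 19 genes (26.3%, 11.8 to 48.8%, median length 29.1 kb). Among them were Fasn, the fatty acid synthase, with a member 6757 bp upstream (Rad21 225, CTCF 62), Acly, which makes cytosolic acetyl-CoA (175, CTCF 82), Gpam, of glycerolipid synthesis, with 2 members, the stronger with a Rad21 score of 134 (CTCF 72), and Acacb. The members of Fasn and Acly had Stag1, Stag2 and Top2b peaks and no motif, the stronger one of Gpam had none of these peaks and a motif score of 8.95, and that of Acacb had a Top2b peak only and no motif.

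The other lists had few members. Cytochromes P450 had 2 of 16, at Cyp8b1, an enzyme of cholic acid synthesis, 16 bp into the gene in an untranslated exon (Rad21 344 with 100 fragments, CTCF 128) and 4326 bp upstream of Cyp2b10 (60). The list of gluconeogenesis and the urea cycle had 2 of 15, at Slc2a2, the hepatic glucose transporter (172), and Glul, glutamine synthetase (35). Growth hormone signalling had 3 of 16, at the receptor genes Lifr (168) and Ghr (72) and near Cux2 (61), a female-biased repressor in mouse liver. Secreted plasma proteins had 2 of 24, near Trf, transferrin (197), and Rbp4, the retinol carrier (171). Hepatocyte transcription factors had 1 of 16, in a coding exon of Hnf4a (75). Genes of the cohesin and CTCF machinery had 2 of 14, at the cohesin loader Nipbl (89) and at Pds5a (77), and cytosolic ribosomal proteins 3 of 22, at Rpl19 (113), Rpl13 (99) and Rplp1 (66). Values in parentheses are Rad21 scores.

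Members were spread over all autosomes and were mostly single sites. They numbered from 52 on chromosome 18 to 129 on chromosome 11. Their share of the classified sites of a chromosome ran from 2.51% on chromosome 7 to 3.89% on chromosome 8. The Top2b share ran from 58.9% to 78.9% over the autosomes. Within 10 kb of a member another member lay in 101 cases. A TAD or intra-TAD loop anchor lay within 10 kb of 16.7% of members, 14.99% of weak other CAC sites (1.68 points, -0.338 to 3.81) and 16.0% of weak lone sites without Rad21 (0.722 points, -2.18 to 3.54). The nearest anchor was at a median of 36042 bp.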

How the data were processed

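The 3 deposited files are a pooled CTCF peak list, a pooled Rad21 peak list and a list of classified CTCF sites. The authors merged the reads of each factor, mapped them to mm9 with Bowtie2, called peaks with MACS2 (both named in the submitters' processing notes), removed blacklisted regions and, for the class list, kept peaks of at least 2 livers. The deposited peak score is 10 times the −log10 q, cut to a whole number, and the deposited fold is a ratio, with 1 added to the fragments at the summit and to the local background. Columns of −log10 p-values and q-values were deposited too. The motif score deposited in the class list is the log-odds of the best CTCF motif, and Stag1, Stag2 and Top2b flags come from public peaks of the authors' choice. Pooling hides variation between livers, and a q-value depends on depth as well as on binding. The control used in peak calling is not given in the sources used here, nor is the reason why lone-class sites with a Rad21 overlap end at a CTCF score of 129, while lone sites without Rad21 reach 9062.

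Members and lists were chosen with earlier results of these data known. Peaks overlapped where they shared 1 bp, and the Rad21 peak of highest score was used. Genes came from GENCODE vM1 on NCBIM37, the mm9 assembly, whose chromosome names held all those of the lists and in which 0 peaks passed a chromosome end. A gene named for a site is the protein-coding gene over the CTCF summit, or else that of the nearest start. Named sites were the 5 of highest Rad21 score, the 5 of highest motif score, the 5 promoter sites of highest Rad21 score and up to 4 genes a list, the rest of a list being named only where few remained. A gene of the lists is not reported here by name. The members for Wwc1, Atl2 and Arfip1 were chosen after values were seen, since windows in untranslated exons or on chromosome 18 were not printed. Summit fragments and background were solved from fold and p, and all recovered counts of members were whole within 0.05. The CTCF matrix of 19 bases was learnt from the 2000 strongest TAD anchors of odd autosomes, with a threshold of 8.63 bits that 5.00% of windows 2 kb away passed. On even autosomes 98.9% of 15457 matches had the deposited strand.

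Shares carry 95% Wilson intervals and the 102 differences Newcombe intervals, not adjusted for their number. Motif score, G+C and distance to a gene start were compared by two-sided Kolmogorov-Smirnov tests, with Benjamini-Hochberg adjustment over 8 tests. A test of Rad21 score and width had been planned and is not given, since the rule used the Rad21 overlap. The scripts were tested on simulated data. The files do not hold the depth of each library, for which the study's methods give only a range over samples. The work used SciPy 1.17.1 and NumPy 2.4.6 under Python 3.11.15, with pandas 2.3.3 for tables and Matplotlib 3.10.9 for plots.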

Additional observations from a re-analysis of the deposited data

Results flagged for a closer look

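Outside the autosomes, 33 further lone-class sites overlapped a Rad21 peak and entered no comparison. They were singled out because they are a signal in data that the comparisons did not use.

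The difference in Top2b share between members and weak other CAC sites was itself different by 23.7 points (18.1 to 29.3) between distal and promoter sites, which is why it is listed here. It was 21.4 points at distal sites and -2.30 points at promoter sites. The CTCF score, which the choice of groups fixed, differed between members and other CAC sites in both places. Its part in the result was not tested beyond limiting other CAC sites to a score of at most 193. The distal difference was then 16.1 points (12.4 to 19.8) and the promoter difference -2.02 points (-7.14 to 3.03). Class and score still could not be told apart. The share of sites with a motif differed too, at 39.3% of distal members and 63.4% of distal other sites. Weighted to 1 motif share in both groups, as added after seeing the data, the distal difference was 11.6 points (that of the members) or 14.9 points (that of the other CAC sites), and its excess over the promoter difference 14.5 points (9.03 to 20.1) or 17.7 points (11.8 to 23.6).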

How the results depend on the processing

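No paired analysis was possible because the lists are pooled over libraries and hold no replicate numbers, and for the same reason no library could be left out. The Top2b difference at distal sites ranged from 11.6 to 25.2 points over 12 alternatives, the lowest weighted to the motif share of the members, all added after seeing the data. Requiring summits within 100 bp of members left 919 of them, with Top2b at 66.3% and a gene start at 30.3%. An overlap of at least 50% of each peak left 1185 members and gave Stag2 at 92.6% and a motif at 41.3%. A Rad21 score of at least 50 left 1466 members and gave Top2b at 72.1%, Stag1 at 56.1%, Stag2 at 93.5% and a median Rad21 score of 138, and, set against unfiltered weak other CAC sites, a Stag1 difference of -2.31 points and a Stag2 difference of 1.15 points. Stag1 and Stag2 were more frequent in the highest than in the lowest range of the Rad21 score in both groups, so this filter on members alone moves these differences by construction. With the filter in both groups, added after seeing the data, they were -4.34 points (-7.27 to -1.42) and -0.347 points (-1.88 to 1.03). With summits within 100 bp in both groups, also added then, the difference in gene starts was -3.05 points and D for the distance to a start 0.0494 (adjusted p = 0.0585, n = 919 and 3276). A narrower CTCF score range gave a Stag1 difference of -2.09 points. The median G+C of members went from just under to just over that of weak other CAC sites with summits within 100 bp of members (D = 0.0890) or of both groups (D = 0.102), an overlap of 50% in both groups (D = 0.0792), a narrower range (D = 0.0556) and no second CTCF peak on the Rad21 peak (D = 0.0720), the last of which also gave a median Rad21 score of 116. A gene start lay within 500 bp of 29.5% and within 2.5 kb of 37.0% of members. A motif score of at least 10 was found at 21.9%, and G+C in 100 bp had a median of 56.0%. List genes with a member, 32 within 10 kb, numbered 59 within 50 kb and 15 by gene start. Within 50 kb these were 33.7% of list genes, beside 15.9% of all protein-coding genes. By gene start the shares were 8.57% and 4.30%. The other 121 values kept their direction and side of the threshold, stayed inside the 95% interval where there was no test, or, for counts of members, stayed within 1.5 times the count. The cause of the other shifts was not tested.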
